A study of Mus musculus with 8 samples.

Results

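The genes described here are 9 markers of homeostatic, or resting-state, microglia, measured by RNA sequencing of the mouse corpus callosum, the main white matter tract between the hemispheres. They are *P2ry12*, *P2ry13*, *Tmem119*, *Cx3cr1*, *Csf1r*, *Siglech*, *Gpr34* and *Sall1*, together with *Aif1*, which encodes Iba1. They were chosen by symbol as known markers, with earlier results of these data in view but by no threshold on their values, and they are 9 of the 25239 genes in the expression table. All 9 passed the filter on low values, as did 18123 genes in all.

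Tissue came from C57BL/6 mice that underwent bilateral common carotid artery stenosis (BCAS), in which a microcoil placed around each common carotid artery lowers blood flow to the brain, or a sham operation. Wild-type (WT) mice were compared with mice lacking TRPA1, a redox-sensitive cation channel, in the whole body (TRPA1-KO), and the study's methods name male adults of the C57BL/6J background. Each genotype label had 1 BCAS library on each of days 7, 10 and 14 after the operation and 1 sham library, taken on day 14. Depth lay between 7896071 and 12952093 reads on genes per library. The 3 days stood in for replicates, so p-values between the BCAS groups measure the spread between mice collected on different days. In comparisons with both sham libraries as 1 group, the spread also includes the difference between those sham libraries. Where all 4 libraries of each label were compared, it also includes the difference between sham and BCAS.

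The *Trpa1* reads went against the genotype labels, so libraries are named here by their label. The libraries labelled WT held 1 *Trpa1* read in sham and 0 in each of the 3 BCAS libraries, whereas those labelled TRPA1-KO held 10 in sham and 11, 3 and 7 on days 7, 10 and 14. Levels did not overlap between the labels (exact permutation test, two-sided, p = 0.029, n = 4 and 4, the smallest p this design allows). Reads were summed over the gene, so reads on a deleted stretch could not be told from reads elsewhere in it. Every direction between labels below carries this limit.

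Microglia are the resident macrophages of the brain and depend on signaling through the receptor CSF1R for their survival. In the undisturbed brain they express a set of surface receptors and the transcription factor SALL1, by which they are told from other macrophages. In many injury and demyelination models part of this set is reduced in microglia that take up a phagocytic state, while *Aif1* marks microglia and macrophages in any state.

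In the sham libraries, all 9 genes were detected. Per length, relative to the exonic bases of each gene in GENCODE M21, *Csf1r* had the highest sham level at 16.2 CPM per kilobase, followed by *P2ry12* at 12.7, *Cx3cr1* at 9.47 and *Tmem119* at 7.69. *Sall1*, *Gpr34*, *P2ry13* and *Siglech* followed at 5.82, 5.68, 4.73 and 4.53 CPM per kilobase, and *Aif1* was lowest at 2.38. The sham libraries carried the defining markers of microglia at moderate levels among RNA of oligodendrocytes, neurons and astrocytes.

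The genes lie on several chromosomes of GRCm38. *P2ry12* (chr3:59216272-59262871) and *P2ry13* (chr3:59207892-59210882) are neighbors on the minus strand, and both lie within *Med12l* on the opposite strand, which shares 9 exonic bases with *P2ry12* and 0 with *P2ry13*. *Tmem119* (chr5:113793729-113800516), *Sall1* (chr8:89027235-89044162) and *Aif1* (chr17:35170991-35176068) are on the minus strand and *Siglech* (chr7:55768178-55778925) is on the plus strand, with no gene of the annotation overlapping them. *Cx3cr1* (chr9:119901616-120069879, minus strand) spans several genes and shares 78 exonic bases, 1.73% of its own, with the antisense gene *Gm33858*. *Gpr34* (chrX:13632089-13640858) lies within *Cask* on the opposite strand with 0 shared exonic bases.

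Promoters were available in RefSeq (GRCm38.p6) for 6 of the 9 genes, and the 100 bases before the start are shown for the 5 of these in which the BCAS libraries labelled WT of days 7 and 10 were the 2 highest. The gene not shown, *Sall1*, had another second-highest library. Capitals mark GAGGAA, a core of the element bound by PU.1 (*Spi1*), or its reverse complement TTCCTC. Each sequence is written in the direction of its gene, and *Siglech* is on the plus strand and the other 4 genes on the minus strand.
P2ry12, chr3:59262986-59263085: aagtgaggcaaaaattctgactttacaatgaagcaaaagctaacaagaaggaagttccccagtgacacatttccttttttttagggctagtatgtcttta
P2ry13, chr3:59210883-59210982: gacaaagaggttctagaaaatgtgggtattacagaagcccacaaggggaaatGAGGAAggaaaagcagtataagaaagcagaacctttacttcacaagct
Cx3cr1, chr9:120068297-120068396: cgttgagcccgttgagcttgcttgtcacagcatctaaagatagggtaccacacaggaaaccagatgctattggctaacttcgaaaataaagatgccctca
Siglech, chr7:55768084-55768183: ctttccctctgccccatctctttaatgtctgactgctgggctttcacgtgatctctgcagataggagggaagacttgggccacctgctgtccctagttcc
Aif1, chr17:35176053-35176152: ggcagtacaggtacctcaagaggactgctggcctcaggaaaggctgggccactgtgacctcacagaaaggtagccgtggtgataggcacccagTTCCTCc

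In *P2ry13* the motif began 48 bases before the start, at position -48, and in *Aif1* its reverse complement began at -7. In *Siglech* the reverse complement began at -4 and ran past the start, so it is not marked and not counted as upstream. On either strand, 2 of the 6 genes (33.3%) held the motif within 250 bases upstream, beside 6986 of 27025 genes (25.9%) and 7639 of 32851 promoters (23.3%) in the same table. These letters are a description of the window and not a binding site.

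The 9 genes stood highest in the BCAS library labelled WT on day 7, lower on day 10, and close to sham on day 14. With the label TRPA1-KO, the day 7 and day 10 libraries lay near or below sham and the day 14 library was slightly above it. The summed level of the 9 genes was 247 and 272.4 CPM in the sham libraries labelled WT and TRPA1-KO. After BCAS, days 7, 10 and 14 had 535.8, 385.3 and 255.2 CPM in the libraries labelled WT, against 232.4, 255.1 and 322.3 CPM with the other label. In bulk tissue, more cells of a type and more RNA per cell cannot be told apart. Because sham tissue was taken only on day 14, the operation and the day cannot be told apart for the earlier libraries.

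**Figure D1:**
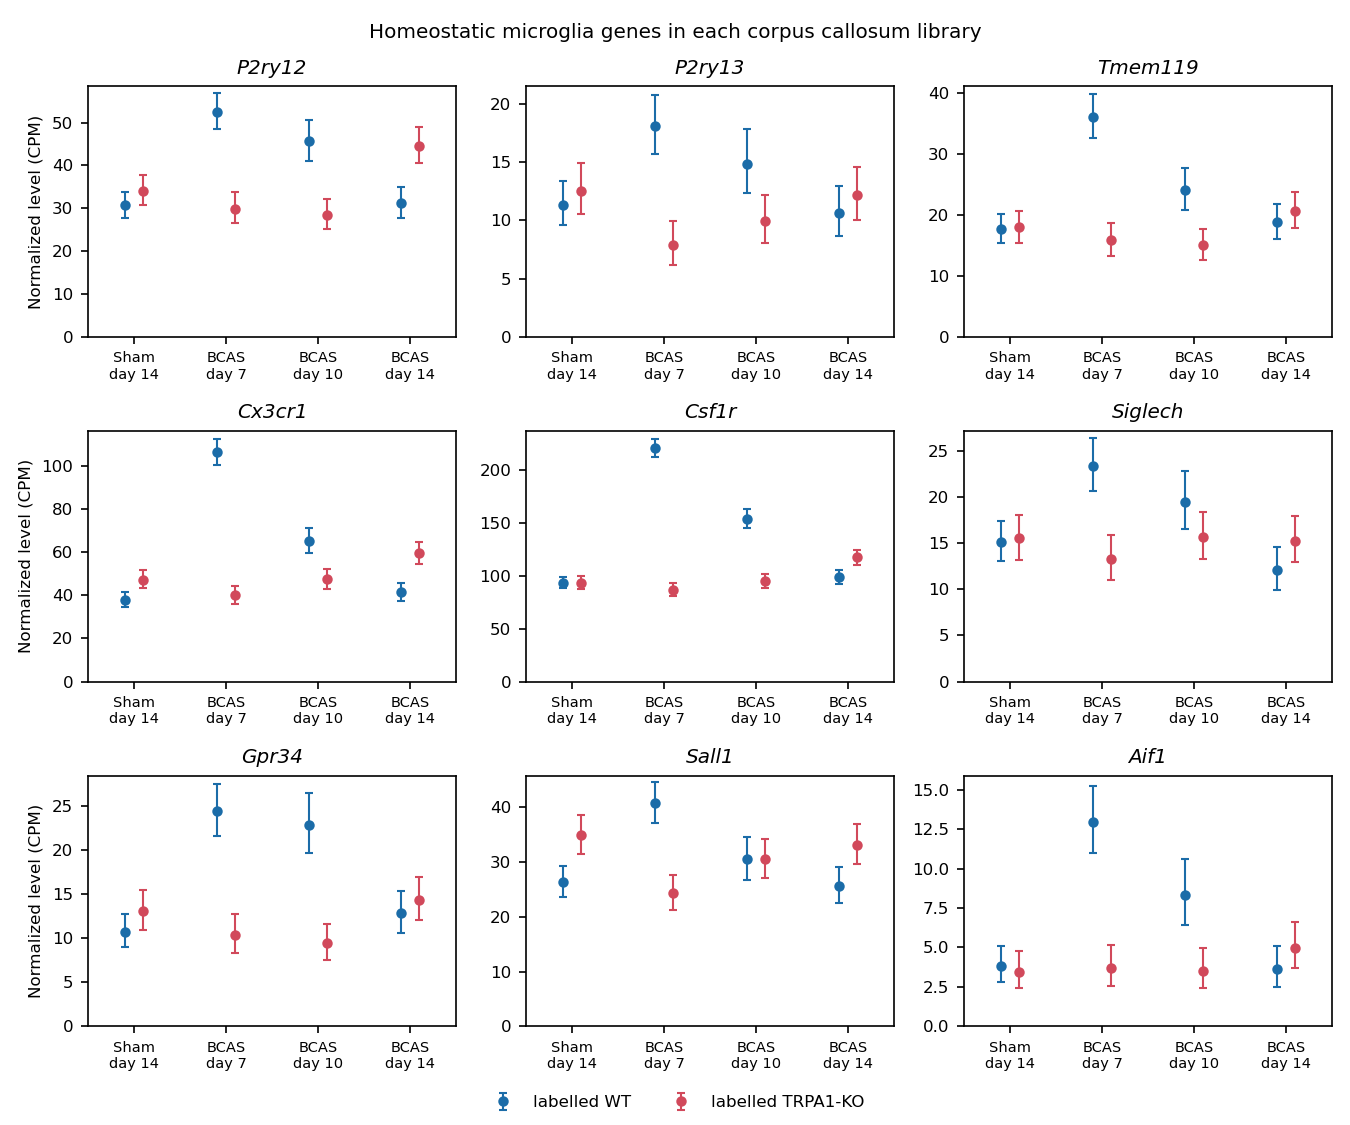
Normalized level (CPM, linear axes that start at 0) of each of the 9 genes in each library, by operation and day. Each point is 1 library, blue for the label WT and red for the label TRPA1-KO, and bars are exact 95% intervals that cover counting error only. In every panel the blue point of BCAS day 7 is the highest, and on BCAS day 14 the red point lies above the blue one.

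The plot of levels by library shows the same 2 highest libraries in most genes. For 9 of 9 genes the BCAS day 7 library labelled WT was the highest of the 8, beside 21.9% of all genes tested. The BCAS day 10 library labelled WT came second in 8 of the 9 genes, beside 6.47% of all genes with this pair in the top places, the exception being *Sall1*. Which library was lowest varied among the genes.

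The purinergic and lipid receptors are G protein-coupled receptors of the microglial surface. P2RY12 senses ADP and ATP released by damaged cells and guides the movement of microglial processes. Its levels in the order sham, day 7, day 10 and day 14 were 30.7, 52.6, 45.6 and 31.2 CPM in the libraries labelled WT, and 34.1, 29.9, 28.5 and 44.6 CPM in those labelled TRPA1-KO. The day 7 and day 10 libraries labelled WT and the day 14 library labelled TRPA1-KO stood apart from the other 5, which lay within 28.5 to 34.1 CPM. The BCAS groups overlapped, with means of 43.1 ± 10.9 CPM for the label WT and 34.4 ± 8.92 CPM for the label TRPA1-KO (SD, n = 3 each).

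*P2ry13* encodes a related ADP receptor. Its levels in the same order were 11.3, 18.1, 14.9 and 10.6 CPM in the libraries labelled WT and 12.6, 7.90, 9.93 and 12.2 CPM in those labelled TRPA1-KO. The means were 14.6 ± 3.76 and 10.0 ± 2.14 CPM in the BCAS groups (SD, n = 3 each). On day 14 with the label TRPA1-KO *P2ry13* was 1.02 times the pooled sham libraries (95% interval 0.817 to 1.28) and *P2ry12* 1.38 times (1.23 to 1.56), and these intervals overlapped.

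*Gpr34* encodes a receptor for lysophosphatidylserine. Its levels were 10.7, 24.4, 22.8 and 12.8 CPM in the libraries labelled WT and 13.04, 10.4, 9.40 and 14.4 CPM in those labelled TRPA1-KO. It was the gene in which day 10 came closest to day 7, at 1.94 times sham (1.60 to 2.35) beside 2.07 times (1.75 to 2.46). The BCAS groups overlapped in 1 pair of libraries, since the day 14 library labelled TRPA1-KO exceeded the day 14 library labelled WT.

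CX3CR1 is the receptor of the neuronal chemokine fractalkine, and CSF1R that of the growth factors CSF1 and IL-34. *Cx3cr1* had 37.9, 106, 65.3 and 41.4 CPM in the libraries labelled WT, in the order sham, day 7, day 10 and day 14. It had 47.4, 40.2, 47.4 and 59.5 CPM in those labelled TRPA1-KO. The day 7 library labelled WT was 2.52 times sham (2.32 to 2.75), and the second-highest library, day 10 of the same label, 1.55 times (1.39 to 1.72). The day 14 library labelled TRPA1-KO was 1.41 times sham (1.27 to 1.57).

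*Csf1r*, the most abundant of the 9 genes, had 93.3, 221, 154 and 99.1 CPM in the libraries labelled WT and 93.5, 87.1, 95.03 and 117 CPM in those labelled TRPA1-KO. The sham libraries differed by less than 1 CPM, and all 3 BCAS libraries labelled WT lay above both. A position above both sham libraries in all 3 BCAS libraries of the label WT was shared by 8.89% of all genes tested. *Tmem119* was the other of the 9 genes with this pattern. *Csf1r* (chr18:61100598-61132149) shares 873 exonic bases, 15.1% of its own, with *Hmgxb3* on the opposite strand, and since the strand setting of the read counting is not given in the sources used here, reads on them could belong to either gene.

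TMEM119 and SIGLECH are surface proteins used to separate microglia from blood-derived macrophages. *Tmem119* had 17.7, 36.1, 24.1 and 18.8 CPM in the libraries labelled WT and 17.9, 15.8, 15.1 and 20.7 CPM in those labelled TRPA1-KO. *Siglech* had 15.1, 23.4, 19.5 and 12.1 CPM in the libraries labelled WT and 15.5, 13.2, 15.7 and 15.3 CPM in those labelled TRPA1-KO. *Siglech* was the lowest of its 8 libraries on day 14 after BCAS with the label WT, at 0.789 times sham (0.631 to 0.980), while *Tmem119* in that library was 1.05 times sham (0.877 to 1.26).

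SALL1 is a zinc finger transcription factor that holds microglia in their identity. *Sall1* varied least, with 26.4, 40.7, 30.5 and 25.7 CPM in the libraries labelled WT and 34.9, 24.3, 30.5 and 33.2 CPM in those labelled TRPA1-KO. Its sham libraries differed from each other, and the sham library labelled TRPA1-KO was the second highest of the 8. *Sall1* on day 10 with the label WT was 1.01 times sham (0.869 to 1.17), and the BCAS group means were 32.3 ± 7.69 and 29.3 ± 4.58 CPM (SD, n = 3 each).

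*Aif1*, the gene of the calcium-binding protein Iba1, was the least abundant and had the largest ratios. Its levels were 3.83, 12.98, 8.32 and 3.62 CPM in the libraries labelled WT and 3.45, 3.67, 3.52 and 4.99 CPM in those labelled TRPA1-KO, which rest on 49, 146, 66 and 33 reads and on 36, 33, 33 and 48 reads. The day 7 library labelled WT was 3.55 times sham (2.70 to 4.69) and the day 10 library 2.27 times (1.62 to 3.17). The other 4 BCAS libraries lay within 3.52 to 4.99 CPM.

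The genes thus differed in how far the day 7 library labelled WT stood above sham. *Aif1*, *Cx3cr1*, *Csf1r*, *Gpr34* and *Tmem119* were 2.03 to 3.55 times sham, and the intervals of these 5 genes lay above those of *Sall1* at 1.35 times (1.20 to 1.52). *P2ry12* at 1.63 times (1.46 to 1.82), *P2ry13* at 1.53 (1.27 to 1.83) and *Siglech* at 1.53 (1.30 to 1.80) stood between them, and the intervals of these 3 overlapped. All intervals cover counting error of single libraries only. In shares of the 9 genes' summed CPM, from the sham library to the day 7 BCAS library labelled WT, *Cx3cr1* went from 15.4 to 19.9%, *Csf1r* from 37.8 to 41.3% and *Aif1* from 1.55 to 2.42%. Over the same libraries *Sall1* went from 10.7 to 7.60%, *P2ry12* from 12.4 to 9.81% and *Siglech* from 6.11 to 4.37%. The sham library labelled TRPA1-KO held 17.4% for *Cx3cr1*, 34.3% for *Csf1r* and 1.27% for *Aif1*. For *Sall1*, *P2ry12* and *Siglech* it held 12.8%, 12.5% and 5.70%.

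**Figure D2:**
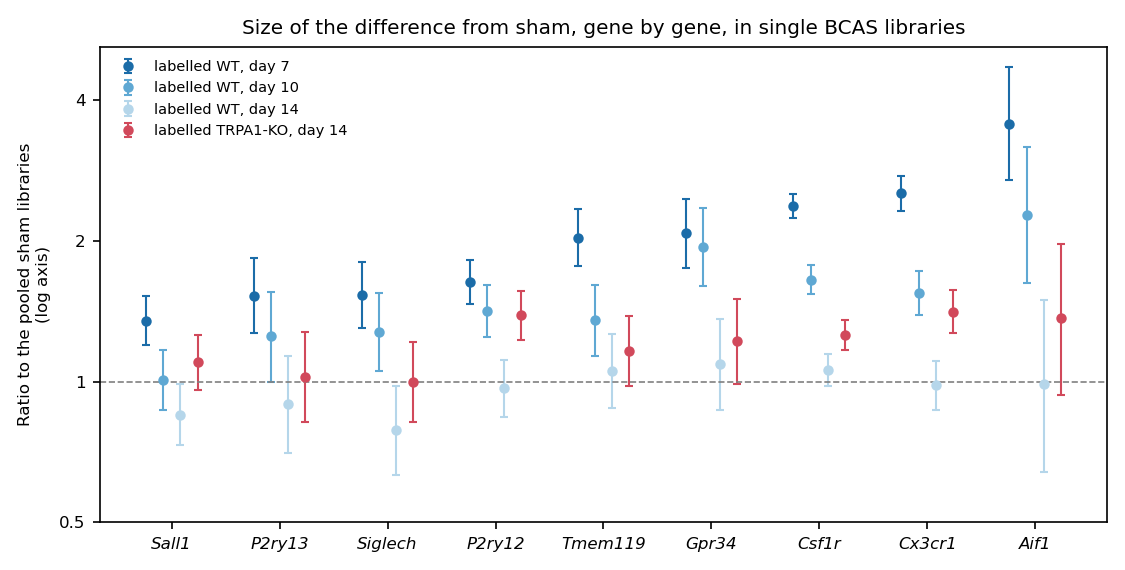
Ratio to the pooled sham libraries (log axis) of each gene in 4 single BCAS libraries, with genes ordered by their day 7 ratio with the label WT. Points are the ratio and bars exact 95% intervals that cover counting error only; the ratio on day 7 with the label WT ran from 1.35 in *Sall1* to 3.55 in *Aif1*, and on day 14 with that label from 0.789 to 1.09.

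Counted against both sham libraries, 9 of 9 genes were above them on day 7 with the label WT, 8 on day 10 and 2 on day 14. Of all genes tested, 38.8%, 35.4% and 33.3% were above both in the same libraries. With the label TRPA1-KO, 0, 3 and 6 of the 9 genes were above both sham libraries on days 7, 10 and 14, beside 35.1%, 32.6% and 33.0% of all genes. On day 7 with the label TRPA1-KO 7 of the 9 genes were below both sham libraries, beside 37.2% of all genes. The median log2 difference from sham, on the scale of log2(CPM + 1), was 0.98, 0.48 and -0.03 with the label WT on days 7, 10 and 14. It was -0.16, -0.04 and 0.26 with the label TRPA1-KO, while the median of all genes lay between -0.01 and 0.00 in every BCAS library.

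The first comparison asked whether BCAS libraries of the labels differed when the 3 days were averaged. All 9 genes were higher on average with the label WT, and none passed the adjustment over all genes tested (limma, Benjamini-Hochberg, adjusted p = 0.98 for each), which 0.0166% of all genes did. *Gpr34* was higher by 0.74 ± 0.24 (log2 fold change of CPM + 1 ± SE), *Csf1r* by 0.60 ± 0.24, *Tmem119* by 0.55 ± 0.21 and *P2ry13* by 0.49 ± 0.21. These 4 of the 9 genes had an unadjusted p under 0.05, all higher, beside 4.2% of all genes tested and 2.4% higher. On whole reads, edgeR gave 5 of the 9 genes and DESeq2 4 with an unadjusted p under 0.05, beside 5.23% and 3.28% of all genes, and neither gave any of the 9 an adjusted p under 0.05 (0.011% and 0.0938% of all genes).

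The median difference of the 9 genes was 0.49, beside 0.0010 over all genes. For the remaining genes the differences were 0.75 ± 0.35 for *Aif1*, 0.44 ± 0.28 for *Cx3cr1*, 0.32 ± 0.20 for *P2ry12*, 0.25 ± 0.21 for *Siglech* and 0.12 ± 0.17 for *Sall1*. The count rested on single libraries. Leaving out the day 10 library labelled WT or the day 10 library labelled TRPA1-KO left 0 of the 9 genes, beside 3.29% and 1.79% of all genes. Leaving out the day 7 library labelled WT or that labelled TRPA1-KO left 1, beside 3.4% and 3.39%. Without the day 14 library labelled WT there were 8, none past the adjusted threshold, while the share of all genes rose from 4.2% to 10.2% and 29 genes passed the adjusted threshold.

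In 9 of 9 genes the BCAS groups of the labels overlapped, as in most genes, since 9.21% of all genes tested had groups that did not overlap. The exact permutation test (two-sided, n = 3 and 3) gave p = 0.2 for *P2ry12*, *P2ry13*, *Tmem119*, *Csf1r* and *Gpr34*. The exact p was 0.3 for *Aif1*, 0.4 for *Cx3cr1*, 0.5 for *Siglech* and 0.7 for *Sall1*, and the smallest p this design allows is 0.1.

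**Figure D3:**
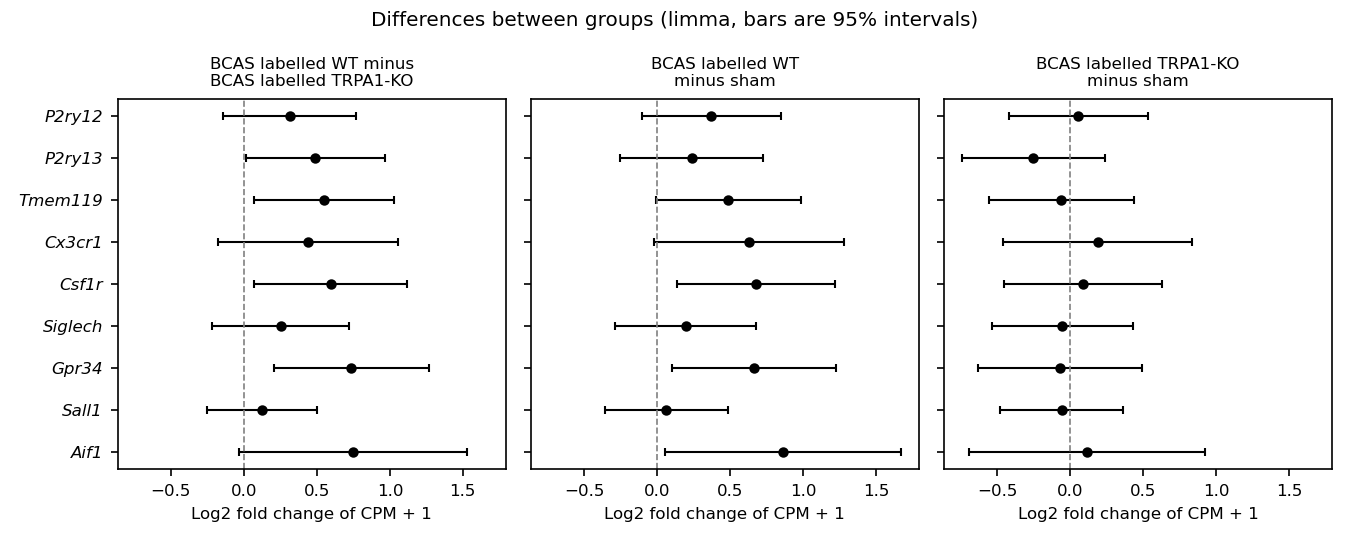
Log2 fold change of CPM + 1 for each gene in 3 comparisons, with limma's estimate as the point and its 95% interval as the bar. The dashed line marks no difference; the 9 points lie between 0.12 and 0.75 in the left panel, between 0.06 and 0.86 in the middle panel and between -0.25 and 0.19 in the right panel.

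Same-day libraries of the labels showed what the average held. On day 7, 9 of 9 genes were higher with the label WT (51.0% of all genes tested), the median ratio was 2.295, and the counting intervals of all 9 ratios lay above 1. On day 10, 8 of 9 were higher (49.6% of all genes), with a median ratio of 1.60 and 7 intervals above 1. On day 14 the order was the opposite. None of the 9 genes was higher with the label WT (48.7% of all genes), the median ratio was 0.789, and the intervals of 4 genes lay below 1. Those 4 genes were *P2ry12* at 0.698 (0.599 to 0.813), *Cx3cr1* at 0.695 (0.609 to 0.793), *Csf1r* at 0.844 (0.772 to 0.921) and *Sall1* at 0.774 (0.651 to 0.919). In the sham libraries, taken on the same day, the median ratio was 0.903 and the intervals of *Cx3cr1* and *Sall1* lay below 1. Each day had 1 library per label, so these ratios have no replicate check.

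The second question was whether BCAS libraries differed from sham. With the label WT all 9 genes were higher on average, with a median log2 fold change of 0.49 beside -0.0012 over all genes. *Csf1r* was higher by 0.68 ± 0.25, *Gpr34* by 0.66 ± 0.26 and *Aif1* by 0.86 ± 0.37. These 3 of 9 genes had an unadjusted p under 0.05, beside 5.45% of all genes tested and 2.44% higher, and the smallest adjusted p among the 9 genes was 0.88, in a comparison where 0.0% of all genes passed that adjustment. On whole reads 5 of the 9 genes had an unadjusted p under 0.05 in edgeR (6.78% of all genes) and 4 in DESeq2 (4.54%). *Cx3cr1* at 0.63 ± 0.30, *Tmem119* at 0.49 ± 0.23 and *P2ry12* at 0.37 ± 0.22 were next, and *P2ry13*, *Siglech* and *Sall1* lay at 0.24, 0.20 and 0.06.

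These averages rested on days 7 and 10. Without both day 7 libraries 0 of the 9 genes had an unadjusted p under 0.05, beside 5.76% of all genes. When only day 14 libraries were compared, the median was -0.03. Without the day 14 library labelled WT, 7 of the 9 genes had an unadjusted p under 0.05, beside 11.1% of all genes, and *Csf1r* alone passed the adjusted threshold, at a log2 fold change of 0.98 with limma's adjusted p = 0.044. Over all genes, 45 passed in that fit. Leaving out the sham library labelled WT left 0 of the 9 genes (4.11% of all genes), and leaving out the sham library labelled TRPA1-KO, the day 7 library or the day 10 library labelled WT left 1 each (1.97%, 5.29% and 4.58%). The exact permutation test allows no p under 0.2 with 3 and 2 libraries, and that value was reached by *Csf1r* and *Tmem119*.

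With the label TRPA1-KO, 4 of the 9 genes were higher and 5 lower than sham on average. None of the 9 had an unadjusted p under 0.05 in limma, beside 2.74% of all genes, and none in edgeR or DESeq2 (2.85% and 1.4% of all genes). The log2 fold changes ran from -0.25 ± 0.22 in *P2ry13* to 0.19 ± 0.30 in *Cx3cr1*, with a median of -0.05. The 95% interval of *Csf1r* ran from -0.46 to 0.63, and the estimate with the label WT lay just outside it. That estimate has its own error and uses the same sham libraries, so this is no test of a difference between the labels. For *Aif1* the interval ran from -0.69 to 0.92 and held the value of the label WT.

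The difference of the BCAS effect between the labels was tested itself, with each label's own sham library. It was positive in 9 of 9 genes with a median of 0.60 (0.0053 over all genes), and none had an unadjusted p under 0.05 in limma, beside 1.5% of all genes tested. *Gpr34* had the largest value, 0.996 ± 0.48 (limma's adjusted p = 0.9998). Both edgeR and DESeq2 gave 1 gene of the 9 with an unadjusted p under 0.05, beside 1.85% and 0.541% of all genes. When all 4 libraries of each label were compared whatever the operation, 8 of 9 genes were higher with the label WT. The median was 0.33, and none had an unadjusted p under 0.05 in limma (3.94% of all genes tested), 4 had one in edgeR (4.76%) and 3 in DESeq2 (3.44%).

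Other genes of microglial identity, from a list of 18 such as *Fcrls*, *Olfml3* and *Itgam*, had their highest summed levels in the same 3 libraries as the homeostatic genes, at 957, 521 and 435 CPM, while the order of the other 5 libraries differed. In 15 of the 18 genes, beside 21.9% of all genes tested, the day 7 library labelled WT was the highest. The exceptions were *Kcnk13*, *Slc2a5* and *Cd33*. The median log2 difference of the 18 genes from sham was 1.31 on day 7 and 0.62 on day 10 with the label WT. On day 14 with the label TRPA1-KO it was 0.34. In these libraries 17, 16 and 14 of the 18 genes were above both sham libraries, beside 38.8%, 35.4% and 33.0% of all genes. *Itgam*, the gene of the integrin CD11b, had 22.7, 86.2, 41.5 and 27.0 CPM in the libraries labelled WT in the order sham, day 7, day 10 and day 14, and 22.3, 17.7, 18.3 and 31.9 CPM in those labelled TRPA1-KO.

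Between the BCAS groups of the labels, 5 of these 18 genes were higher at an unadjusted p under 0.05 (*Itgam*, *Ptprc*, *Gpr84*, *Laptm5* and *Olfml3*) and 1, the potassium channel gene *Kcnk13*, was lower, with none past the adjusted threshold. Over all genes tested, 4.2% had an unadjusted p under 0.05 in that comparison, and 2.4% were higher at that threshold. Of the 18 differences 16 were positive, the others being those of *Kcnk13* and, at -0.050, *Slc2a5*. *Kcnk13* had 10.5, 11.5, 9.70 and 7.13 CPM in the libraries labelled WT and 16.6, 12.6, 14.3 and 13.5 CPM in those labelled TRPA1-KO, a log2 fold change of -0.49 between the BCAS groups (limma's adjusted p = 0.98).

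Of 10 transcription factors of microglia, 7 were above both sham libraries on day 7 with the label WT, beside 38.8% of all genes tested. *Spi1*, the gene of PU.1, had 2.66, 10.5, 5.80 and 2.19 CPM in the libraries labelled WT and 3.36, 3.12, 2.67 and 3.85 CPM in those labelled TRPA1-KO. *Irf8* had 3.52, 21.3, 13.1 and 4.83 CPM, and 4.89, 3.56, 4.91 and 8.95 CPM. The most abundant factors of the list, *Mef2c* and *Mef2a*, are also expressed by neurons. *Mef2a* lay between 191 and 216 CPM in the 8 libraries and *Mef2c* between 476 and 653 CPM, with sham libraries at 591 and 476 CPM. *Cebpa*, higher by 0.65 between the BCAS groups, was the 1 factor of the 10 with an unadjusted p under 0.05 there (4.2% of all genes). It did not pass the adjusted threshold.

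The ligands of the receptors did not share one pattern. *Csf1* had 24.5, 54.0, 34.8 and 24.1 CPM in the libraries labelled WT and 31.0, 28.4, 29.8 and 30.9 CPM in those labelled TRPA1-KO, and so had its highest level in the same library as *Csf1r*. *Il34*, the other ligand of CSF1R, was lowest in that library at 33.7 CPM, with 37.2 to 47.3 CPM in the other 7. The fractalkine gene *Cx3cl1* was also lowest there at 478 CPM, with 526 to 704 CPM in the other 7. Among the 14 ligands and partners, *Tgfbr2*, a receptor subunit for TGF-β, was higher by 0.63 between the BCAS groups of the labels and by 0.82 from sham with the label WT. *Nrros*, whose product presents TGF-β1 on microglia, was higher by 0.79 between the labels. Both had an unadjusted p under 0.05 between the labels, the only 2 of the 14 that did, beside 4.2% of all genes tested. Neither passed the adjusted threshold.

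Genes of phagocytic and disease-associated microglia stood further above sham than the homeostatic genes on day 7 with the label WT. The median log2 difference from sham on day 7 with the label WT was 2.22 for 12 complement C1q and phagocytic receptor genes and 1.85 for 18 disease-associated genes, beside 0.98 for the 9 homeostatic genes. On day 10 it was 0.97 and 0.46, beside 0.48. All 12 and all 18 were highest in the day 7 library labelled WT, beside 21.9% of all genes tested. *C1qa*, a subunit of the complement recognition protein, had 31.6, 148, 62.3 and 26.7 CPM in the libraries labelled WT and 30.6, 29.8, 27.5 and 41.9 CPM in those labelled TRPA1-KO. *Ctss*, the gene of the lysosomal protease cathepsin S, had 50.5, 182, 133 and 54.0 CPM, and 55.4, 46.0, 49.0 and 78.3 CPM.

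Among the disease-associated genes, the glycoprotein gene *Gpnmb* had 78.3 CPM on day 7 with the label WT, 8.70 CPM on day 10 and 1.17 to 3.95 CPM in the other 6 libraries. *Spp1*, the osteopontin gene, had 436 CPM on day 7 with the label WT and 3.64 to 7.01 CPM in the other 7. Of the 18 genes, 3 were higher between the BCAS groups of the labels at an unadjusted p under 0.05 and 6 from sham with the label WT, with none lower and none past the adjusted threshold. For the 12 C1q and phagocytic genes the counts were 3 and 5. Of all genes tested, 2.4% and 2.44% were higher at that threshold in these comparisons. These lists and the homeostatic genes were measured in the same libraries and share their sham samples.

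**Figure D4:**
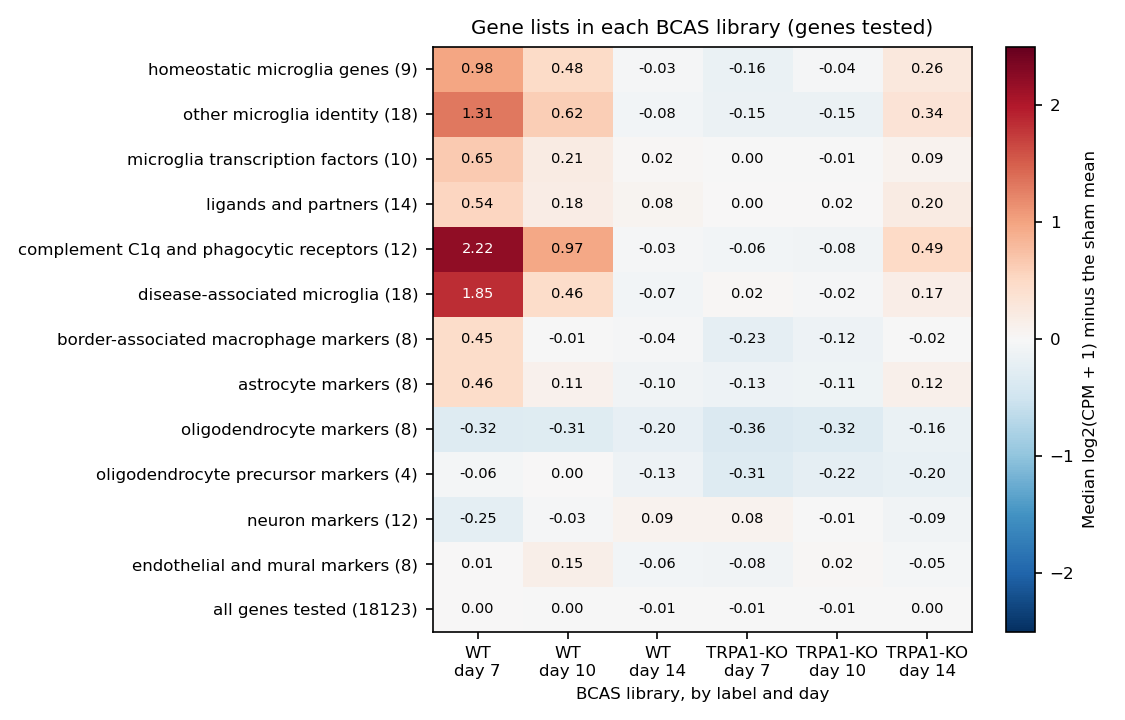
Median over each list (rows, with the number of genes tested) of the log2(CPM + 1) difference from the sham mean in each BCAS library (columns). Red is above sham and blue below; the homeostatic genes run from 0.98 on day 7 with the label WT to -0.16 on day 7 with the label TRPA1-KO, and the row of all genes lies between -0.01 and 0.00.

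Markers of other cell types also differed between these libraries, and their part in the results above was not tested. The summed level of 9 markers of border-associated macrophages was 99.96 CPM on day 7 with the label WT and 20.5 to 33.8 CPM in the other 7 libraries. In that library 5 of the 8 markers tested were above both sham libraries, beside 38.8% of all genes tested. The median log2 difference of the 8 was 0.45. *Stab1* made up 90.4 CPM of the day 7 sum, and *F13a1* at 2.76 CPM, *Cbr2* at 1.16 CPM and *Ms4a7* at 1.07 CPM were also highest there. *Mrc1* was at 2.58 CPM, within its range of 1.78 to 4.99 CPM, *Lyve1* at 0.36 CPM, and *Cd163* at 1.33 CPM, its lowest level, with 3.44 and 3.45 CPM in sham. *Cd163* was the 1 marker of the list with an unadjusted p under 0.05, at a log2 fold change of -0.63 from sham with the label WT. In that comparison 5.45% of all genes had such a p, and *Cd163* did not pass the adjusted threshold. The summed level of 8 monocyte and neutrophil markers was 11.2 CPM on day 7 and 4.66 CPM on day 10 with the label WT, and 0 to 2.43 CPM in the other 6. In the day 7 library *Chil3* had 4.45 CPM, *Ly6c2* 3.38 CPM and *Ccr2* 1.78 CPM, with *Ly6g* at 0 reads there and in the other 7 libraries. Of 7 lymphocyte markers, 5 were under the filter on low values, and *Cd4*, which microglia can also express, was between 8.68 and 23.0 CPM.

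The 8 astrocyte markers had a median log2 difference of 0.46 on day 7 and 0.11 on day 10 with the label WT. Above both sham libraries were 7 and 5 of the 8, beside 38.8% and 35.4% of all genes, and 1 was below both on each day. *Slc1a2*, the most abundant of the 8, was at 2675 CPM on day 7, below its sham levels of 3045 and 2770 CPM. The highest level of *Slc1a2* was 3512 CPM, on day 14 with the label TRPA1-KO. *Gfap*, the gene of the astrocyte intermediate filament, had 200, 1415, 1060 and 157 CPM in the libraries labelled WT and 234, 167, 169 and 427 CPM in those labelled TRPA1-KO, and its 3 highest libraries came in the same order as in 6 of the 9 homeostatic genes, the exceptions being *P2ry13*, *Siglech* and *Sall1*. The 8 oligodendrocyte markers had a median log2 difference between -0.36 and -0.16 in all 6 BCAS libraries. The 12 neuron markers had a median of -0.25 on day 7 with the label WT, and between -0.09 and 0.09 in the other 5 BCAS libraries. The striatal neuron genes *Drd1*, *Drd2* and *Ppp1r1b* were detected in every library, at lower mean levels after BCAS than in sham with either label. *Ppp1r1b* had 412 and 542 CPM in the sham libraries and 233 to 380 CPM in the 6 BCAS libraries. From sham, *Ppp1r1b*, *Drd1* and *Drd2* had log2 fold changes of -0.75, -0.73 and -0.86 with the label WT, all at an unadjusted p under 0.05. They were the only 3 of the 12 neuron markers with such a p, beside 5.45% of all genes. With the label TRPA1-KO they were -0.53, -0.47 and -0.54, the first pair at an unadjusted p under 0.05, and none passed the adjusted threshold in either comparison.

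Among 10744 genes averaging 10 CPM or more, those with the profile closest to the mean of the homeostatic genes were *Unc93b1*, *Prdx6*, *Ly86*, *Nckap1l* and *C4b*. The measure was the root mean square difference of z scores over the 8 libraries, which ran from 0.125 in *Unc93b1* to 0.167 in *C4b*, and 8 members above the same mean level had 0.195 (*Csf1r*) to 0.549 (*Sall1*). *Unc93b1*, which carries Toll-like receptors to endosomes, had 11.3, 38.2, 23.7 and 13.1 CPM in the libraries labelled WT and 15.9, 10.7, 12.2 and 17.2 CPM in those labelled TRPA1-KO. *C4b*, the complement C4 gene, had 31.8, 295, 149 and 34.2 CPM, and 47.4, 29.8, 33.3 and 99.3 CPM. Across the 8 libraries the mean z score of the 9 homeostatic genes was 1.85 on day 7 and 0.84 on day 10 with the label WT and 0.22 on day 14 with the label TRPA1-KO. The other 5 libraries lay between -0.94 and -0.17.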

How the data were processed

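RNA-seq libraries of polyadenylated RNA came from 8 pieces of corpus callosum. Alignment to GRCm38 was done by the authors with HISAT (version 2.1.0), read counting per gene with subread (2.0.1) and normalization with edgeR (3.34.1). The annotation, the strand setting and any gene filter are not given in the sources used here. The deposited signal is CPM, that is, read counts per gene relative to the effective size of the library, and it is not on a log scale. Divided by the CPM that 1 read is worth, all values (100%) came out whole within 0.01 read, so whole reads were recovered and gave the exact 95% intervals: Poisson for a level, Clopper-Pearson for a ratio of read counts.

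The log2(CPM + 1) values of the 18123 genes averaging 0.1 CPM or more entered limma (3.58.1, R 4.3.3; lmFit and trended eBayes), with two-sided tests and Benjamini-Hochberg adjustment over all of them. A fold change on this scale understates the change of low genes, so ratios of CPM are larger for *Aif1*. The BCAS libraries were compared with each other in a fit of 6 libraries, and with both sham libraries as 1 group in a fit of 8. The difference of the BCAS effect was fitted in 4 groups, in which each lone sham library is assumed to vary like the others. Exact permutation tests were run for single genes. Alternatives were edgeR version 4.0.16 (quasi-likelihood) and DESeq2 version 1.42.0 on the recovered reads, other pseudocounts, filters and scalings, and leaving out each library. For the difference of the BCAS effect only BCAS libraries were left out.

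The 9 genes and all lists were chosen with earlier results of these data known. Named were the 9 genes, *Trpa1*, in each list genes with an unadjusted p under 0.05 (up to 3 per comparison) and the 2 most abundant, and the 5 genes with the most similar profile. The values of 1 gene that this rule names are not reported here. *Csf1*, *Il34*, *Spi1*, *Gfap*, *Spp1*, *Fcrls*, *Slc2a5*, *Cd33*, *Lyve1*, *F13a1*, *Cbr2*, *Ms4a7*, *Ccr2* and *Ly6g* were named after their values had been seen. Positions are from GENCODE M21.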

Additional observations from a re-analysis of the deposited data

Results flagged for a closer look

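In 20 checks for a library far from the others of its label (9 genes and their summed level in the 4 libraries of each label), 2 were past the limit, and chance alone passes about 1 in 20. *Siglech* on BCAS day 7 was the lowest of the 4 libraries labelled TRPA1-KO, at 13.25 CPM, with the other 3 between 15.3 and 15.7 CPM. *Aif1* on BCAS day 14 was the highest of the 4 libraries labelled TRPA1-KO, at 4.994 CPM, with the other 3 between 3.45 and 3.67 CPM.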

How the results depend on the processing

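Depth limited the low genes most, since *Aif1* rested on 33 to 146 reads per library. Each day had 1 library per label and sham only day 14, so no day-specific difference has a replicate check, and the 3 days enter as replicates although levels differed between them. The median difference between the BCAS groups kept its sign under all 17 alternatives, from 0.18 to 0.76.

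Between the BCAS groups of the labels, 4 of the 9 genes had an unadjusted p under 0.05; with no filter on low values it was 1 (4.62% of all genes), and without both day 7 libraries, an alternative chosen after seeing the data, it was 0 (4.3%). Without those libraries the log2 fold changes of *Cx3cr1*, *Siglech* and *Sall1* were -0.030, -0.0098 and -0.18. Leaving out each library in turn gave 0 to 8 genes (1.79% to 10.2% of all genes), and -0.054 to 0.27 for *Sall1*. In the comparison of the label WT with sham the count was 3 genes (5.45% of all genes). It was 5 with a pseudocount of 0.1 (5.58%), 5 with equalized library medians (5.42%), 5 with edgeR (6.78%), 1 against the sham library of the same label (1.98%), 0 with day 14 only (5.31%) and 0 without both day 7 libraries (5.76%). The day 14 comparisons set 1 BCAS library against both sham libraries, which alone supply the spread. Leaving out each library gave 0 to 7 genes, and 0 to 1 past the adjusted threshold. With day 14 only, the median was -0.035, and *P2ry12*, *P2ry13*, *Cx3cr1*, *Siglech*, *Sall1* and *Aif1* were at -0.053, -0.15, -0.035, -0.32, -0.23 and -0.0057. *Sall1* was at -0.11 without both day 7 libraries and between -0.13 and 0.26 with each library left out.

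For the label TRPA1-KO against sham, day 14 only gave 3 genes with an unadjusted p under 0.05 in place of 0 (4.51% of all genes in place of 2.74%), a median of 0.26, and 0.026, 0.21, 0.26 and 0.13 for *P2ry13*, *Tmem119*, *Gpr34* and *Sall1*. Without both day 7 libraries *Siglech* was at 0.016 and *Sall1* at 0.067, and against the sham library of the same label *P2ry12* was at -0.019. With each library left out, signs changed for 7 genes, with *P2ry12* from -0.14 to 0.17, *Tmem119* from -0.20 to 0.022, *Csf1r* from -0.038 to 0.18, *Siglech* from -0.099 to 0.016, *Gpr34* from -0.24 to 0.057, *Sall1* from -0.26 to 0.14 and *Aif1* from -0.013 to 0.19. Over all 4 libraries of each label, the count of 0 genes (3.94% of all genes) became 1 with a pseudocount of 0.1 (3.95%). It was 1 with equalized library medians (3.93%), 4 with edgeR (4.76%) and 3 with DESeq2 (3.44%). With each library left out it was 0 to 6, beside 2.7% to 5.87% of all genes. *Sall1*, at -0.0070, was at 0.0042 with edgeR and 0.0019 with DESeq2, and ran from -0.15 to 0.070 with each library left out, and *Cx3cr1* from -0.040 to 0.45. The median difference of the BCAS effect was 0.60, and ran from 0.32 to 0.82 with each BCAS library left out. The sham libraries, 1 per label, were not left out there. The cause of these changes was not tested.

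Among all genes with an unadjusted p under 0.05 between the BCAS groups, 57.2% were higher with the label WT in limma, 67.4% in edgeR and 74.5% in DESeq2. Against sham the label WT had 44.8%, 57.9% and 57.1%. Over 10744 genes, the deviations of same-day libraries from their group means had correlations of -0.1, 0.0051 and -0.26 on days 7, 10 and 14. With 1 library per label and day, these values cannot show whether the day acts as a pairing. The main fits did not pair by day. With the day as a replicate block, 3 of the 9 genes had an unadjusted p under 0.05 between the BCAS groups, 632 of all genes in place of 761, and the median stayed at 0.49. In the 4-library comparison the block gave 0 of the 9 genes, beside 3.78% of all genes.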
